A study of Mus musculus with 4 samples.

Results

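The genes described here are 46 genes of mitosis and the spindle: the kinases, motors, checkpoint and centromere proteins, condensin subunits and their activator that carry a cell from entry into mitosis to its division. They were chosen by name, cyclins left out, as every gene of that list with a non-control probe on the array, and all 46 had 1, of 27666 distinct gene names in all. The study set the livers of 4 mice given an antisense oligonucleotide (ASO: chemically modified, short, and made to pair with 1 transcript so that it is degraded) to perilipin 2 (Plin2, a coat protein of lipid droplets) beside the livers of 4 mice given a scrambled control ASO. All 8 animals were male C57BL/6 mice on a high-fat diet, and both groups were injected intraperitoneally at 25 mg/kg for 4 weeks with 2 doses a week, so the controls carried an oligonucleotide too. The labels used here give no age and no name of the oligonucleotide's target site. Each of 4 Agilent mouse arrays held 1 control liver in red (Cy5) and, in green (Cy3), 1 liver labelled Plin2-ASO: control mice 1, 2, 4 and 5 were set against mice 6, 7, 9 and 10 on arrays 1 to 4.

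Most cells of an adult liver rest outside the cell cycle, and mitotic transcripts are scarce there unless cells divide, as they do after injury or partial removal of the liver and in the inflamed, scarring liver. The genes of the list are switched on together late in the cycle: a complex called DREAM holds them off in resting cells, and MYBL2 and FOXM1 with the MuvB core turn them on, through promoter sites known as the cell cycle genes homology region (CHR) and the CCAAT box bound by NF-Y. Their transcripts fall again after division, so their level in a tissue follows how many cells are in or near mitosis.

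In the livers labelled Plin2-ASO, 30 of the 44 genes of the list that could be tested were lower than in control livers and 0 were higher, at an adjusted p under 0.05 (limma, Benjamini-Hochberg over all 18041 genes tested). Among all genes tested the shares were 6.08% lower and 3.69% higher. At an unadjusted p under 0.05, 39 members were lower and 0 higher, where 15.7% and 11.3% of all genes were. The median of the mean log2 ratios (liver labelled Plin2-ASO over control liver) was -1.10 for the list and -0.03 for all genes, and 43 of the 44 means were below 0. More than 2-fold lower and past the threshold were 23 of the 44, against 2.52% of all genes. The 44 include 8 members that passed the background filter through the control livers alone, which favours a fall. Among members measured above background in both groups the largest falls were those of Cdc20, Mki67, Prc1, Nek2 and Cenpa. The exception above 0 was Pttg1, the securin that holds separase back, whose mean ratio was 0.081 ± 0.18 (SE, n = 4) with an adjusted p of 0.809.

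The separation held liver by liver. On arrays 1 to 4 the median log2 ratio of the list was -1.08, -1.25, -0.97 and -1.10, and 44 of 44, 43 of 44, 38 of 40 and 42 of 43 measured members were below 0. On every array that measured them 41 members were below 0, which held for 19.6% of all genes. For 32 of the 44 the mice of the 2 groups did not overlap, with every control liver above every liver labelled Plin2-ASO, against 10.9% of all genes tested. These counts include the members that passed the background filter through the control livers alone, and were not repeated without them. The members' spread within a group was close to that of other genes: the median SD of the log2 signal over mice was 0.21 in controls and 0.24 in mice labelled Plin2-ASO, beside 0.24 and 0.27 for all genes. In whole tissue, fewer dividing cells and less of these transcripts per cell cannot be told apart.

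**Figure D1:**
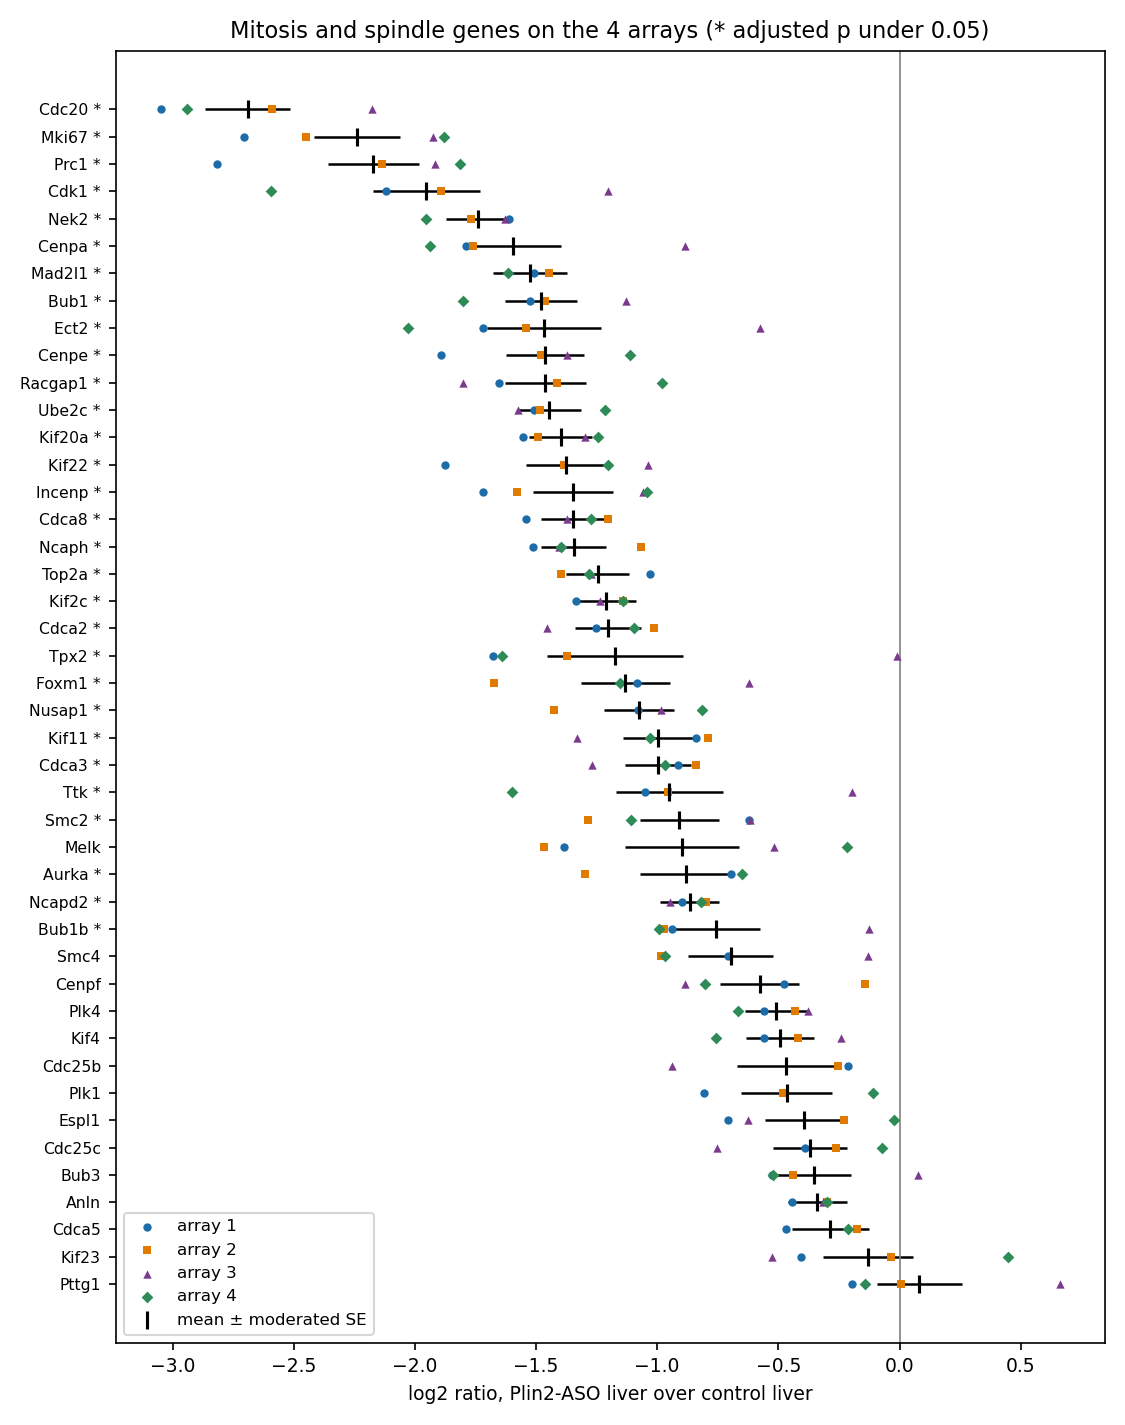
Log2 ratio (liver labelled Plin2-ASO over control liver, x axis) of the 44 mitosis and spindle genes tested, 1 line per gene; coloured symbols are arrays 1 to 4, the black bar is the mean with its moderated standard error, and a star marks an adjusted p under 0.05. Cdc20 lies farthest left at -2.69, and Pttg1 is the 1 gene with a mean above 0. Among the 39 genes measured on all arrays, array 3 gives the highest ratio for 16, such as Cdk1, Cenpa, Ect2, Tpx2, Ttk and Bub1b. It gives the lowest for 9, such as Cdca2, Cdca3, Kif11 and Racgap1.

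Some limits belong to every value given here. The targeted gene, Plin2, showed no fall in the livers labelled Plin2-ASO (log2 ratios 0.24, 0.15, 0.83 and 0.36 on arrays 1 to 4, mean 0.40 ± 0.15 SE, adjusted p = 0.156 by limma). The dyes were the same way round on all arrays, so a probe's dye effect cannot be told apart from the treatment, and if dyes or labels were swapped every direction would be mirrored. All arrays lay on 1 slide and in 1 scan. Median spot signals were 244 to 637 over local backgrounds of 55.0 to 63.5, 59.9% to 70.1% of probes were well above background, and no spot was saturated. Array 3 stood apart, with 7.61% of its spots carrying the scanning software's outlier mark (1.5% to 3.83% on the others) and a mean correlation of 0.33 with the other arrays across genes, which are not independent replicates (0.51 to 0.65 for the others). It also gave the highest ratio for 16 of the 39 members measured on all arrays, against 2, 8 and 13 for arrays 1, 2 and 4. The lowest ratio lay on array 3 for 9 members, against 15, 6 and 9 for arrays 1, 2 and 4, so it deviated both ways. The p-values and SEs rest only on spread between these 4 pairs of mice, which limma moderates for each gene towards that of all genes.

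To enter the test a probe needed a signal clear of background in 1 of the groups on 3 arrays or more. Through the control livers alone passed 8 members (Cdk1, Cdc25c, Plk4, Bub1, Ttk, Ect2, Tpx2 and Ncaph). For such a gene the filter favoured a fall without forcing it: Cdc25c was not called and its groups overlapped. Counted over the 36 members well above background on at least 3 arrays in both groups, 24 were lower and the median log2 ratio was -1.04, where 5.71% of all genes of that kind were lower. Aurkb and Birc5 were not tested. The probe of Aurkb was well above background on 1 array in controls and on 0 in the livers labelled Plin2-ASO, and that of Birc5 gave ratios on arrays 1 and 2 only, of -1.05 and -0.91.

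Promoters show what many of these genes share. RefSeq promoters (build GRCm38.p6, 250 bases before to 50 after each start) were matched by symbol for 38 of the 46; Cdc25c, Cdca2, Aurkb, Kif20a, Incenp, Tpx2, Smc4 and Foxm1 had no entry. The letters of the CHR, TTTGAA or TTCGAA (the latter the same on both strands), were found on either strand in the promoters of 29 of the 38 genes (76.3%), against 17.4% of the 11759 genes tested that had a promoter. The CCAAT letters, which can share at most 1 base with a CHR beside them and were also searched on both strands, were found in 28 (73.7%) against 42.2%. Both sets of letters lay in 1 window in 26 (68.4%) against 7.28%. The CHR letters were found in 20 of the 25 members that were lower and in 9 of the 12 that were not called. Plk4, Mad2l1, Nek2, Cenpe, Birc5, Nusap1, Melk, Pttg1 and Ncaph had no CHR letters in this window. A match of letters is a description of the sequence and no proof of a bound site.

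The last 100 bases before the start are shown for the 5 genes with the largest measured mean log2 ratios, by size, among those that hold the letters there, so that the place of both sets of letters can be read against the start, which follows the last base. Capitals mark CHR letters (TTTGAA, or TTCAAA where they are read from the other strand) and CCAAT or its reverse ATTGG, and each sequence runs 5′ to 3′ along the gene.
Cdc20 (chr4:118437344-118437443, minus strand): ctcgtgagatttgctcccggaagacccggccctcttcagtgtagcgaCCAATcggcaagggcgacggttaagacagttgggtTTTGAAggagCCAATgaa
Mki67 (chr7:135716380-135716479, minus strand): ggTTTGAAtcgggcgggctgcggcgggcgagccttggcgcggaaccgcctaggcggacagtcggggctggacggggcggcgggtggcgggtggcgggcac
Prc1 (chr7:80294376-80294475, plus strand): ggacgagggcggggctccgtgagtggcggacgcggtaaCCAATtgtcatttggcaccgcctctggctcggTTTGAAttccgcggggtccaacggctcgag
Cdk1 (chr10:69352913-69353012, minus strand): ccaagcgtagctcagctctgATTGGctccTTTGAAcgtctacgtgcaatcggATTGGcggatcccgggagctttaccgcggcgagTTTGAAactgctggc
Ube2c (chr2:164769829-164769928, plus strand): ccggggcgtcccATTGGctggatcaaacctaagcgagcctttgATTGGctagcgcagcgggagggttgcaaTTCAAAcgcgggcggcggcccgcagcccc
In Cdc20, Cdk1, Ube2c and Prc1 the CHR letters nearest the start begin 18, 15, 29 and 30 bases before it. RefSeq gives a second start for Prc1, before which they begin 5 bases away. In Mki67 they begin 98 bases before it, with no CCAAT letters in the stretch shown.

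**Figure D2:**
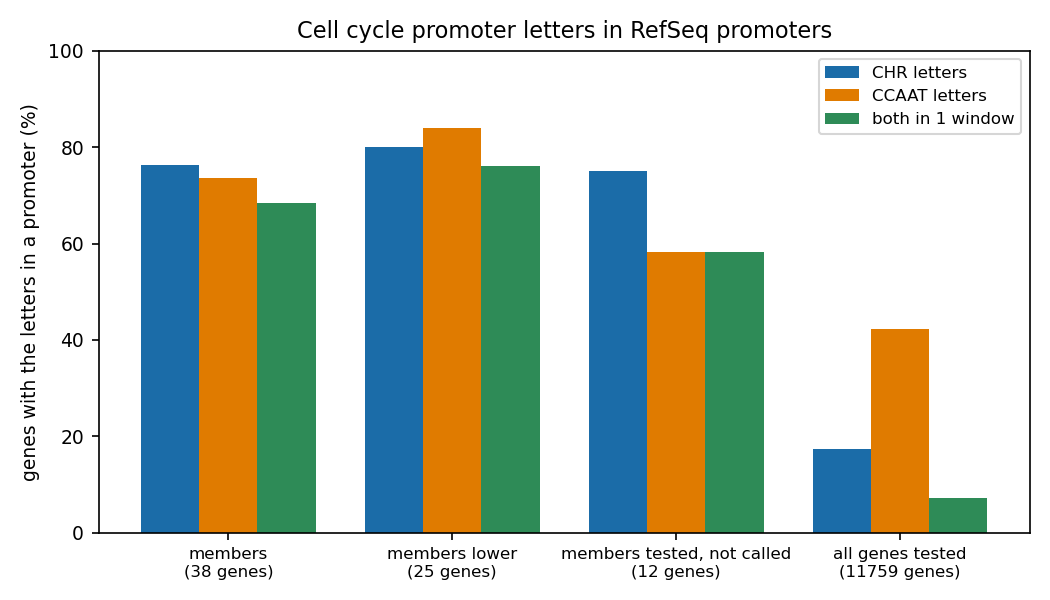
Share of genes (percent, y axis) whose RefSeq promoter holds the CHR letters, the CCAAT letters or both in 1 window, for all 38 members with a promoter, the 25 that were lower, the 12 tested and not called, and all 11759 genes tested with a promoter. CHR letters are in 76.3% of members and 17.4% of all genes, and the members that were lower and those not called stand at 80% and 75%.

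Of the kinases and phosphatases that drive entry into mitosis and build the spindle poles, 4 of the 9 tested were lower. They were Cdk1, Nek2, Ttk and Aurka, and the 9 had a median log2 ratio of -0.88. Cdk1 and Ttk, and of those not called Plk4 and Cdc25c, passed the filter through the control livers alone, which favours a fall. Well above background in both groups, on at least 3 arrays, were 5 of the 9. Cdk1 is the kinase that, with a B-type cyclin, starts mitosis. Its normalized log2 signal was 8.83, 8.78, 8.44 and 9.34 in control mice 1, 2, 4 and 5 and 6.71, 6.89, 7.23 and 6.75 in mice 6, 7, 9 and 10, the order used for every signal below. All control livers lay above all livers labelled Plin2-ASO, in none of which the probe was well above background. The ratios were -2.12, -1.89, -1.20 and -2.59 on arrays 1 to 4 (mean -1.95 ± 0.22 SE, adjusted p = 0.00423 by limma, measured group means 8.85 and 6.90). The floored fall was 3.00-fold. It sets the control mean against the higher of the probe's own signal and the dimmest signal well above background on each array. It leaves out the spread between pairs of mice. The 95% interval of the log2 ratio was -2.47 to -1.43. Nek2, which separates the centrosomes, had signals of 10.38, 10.26, 10.11 and 10.57 in controls and 8.77, 8.49, 8.49 and 8.61 in mice labelled Plin2-ASO. The groups were far apart and the 4 arrays close together, with ratios of -1.61, -1.77, -1.63 and -1.95 (3.34-fold lower, adjusted p = 0.00147 by limma). Aurka, the Aurora kinase of the spindle poles, fell by 0.88 ± 0.19 (SE, n = 3 arrays, adjusted p = 0.0408), although the lowest control liver, at 10.16, lay just below the highest of the others, at 10.21. Its call was lost with median centring in place of loess (adjusted p = 0.0941) and with the software's ratios (adjusted p = 0.0701).

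The other 5 kinases and phosphatases lay below 0 on every array that measured them without passing the test. Plk1, the polo kinase that acts from entry to cytokinesis, had ratios of -0.81, -0.48 and -0.11 on arrays 1, 2 and 4 (adjusted p = 0.180), and Cdc25b and Cdc25c are the phosphatases that remove the inhibitory phosphates from CDK1. Cdc25b gave -0.21, -0.25 and -0.94 on arrays 1 to 3 (adjusted p = 0.198) and Cdc25c -0.39, -0.26, -0.75 and -0.073 on arrays 1 to 4 (adjusted p = 0.173). In all 3 the mice of the 2 groups overlapped. Plk4, the kinase that starts the copying of centrioles, gave -0.56, -0.43, -0.38 and -0.67, with no overlap between the groups and an adjusted p of 0.0503 that lay just above the threshold. Without array 3 that p was 0.0105, and that of Plk1 was 0.0470. Melk, a kinase found in dividing and progenitor cells, split by array: -1.39, -1.47, -0.52 and -0.22 (mean -0.90 ± 0.23 SE, adjusted p = 0.0569), with low values on arrays 1 and 2, and the groups overlapped because mouse 10, at 9.59, lay among the controls. Leaving out array 3 or array 4 brought its adjusted p to 0.0132 or 0.0308.

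The chromosomal passenger complex holds the kinase AURKB at centromeres and then at the midzone, and both of its tested subunits were lower. Incenp, its scaffold, had signals of 11.25, 11.50, 10.97 and 11.44 in controls and 9.53, 9.92, 9.91 and 10.40 in mice labelled Plin2-ASO (mean log2 ratio -1.35 ± 0.17 SE, adjusted p = 0.00514). Cdca8, also known as borealin, had 9.47, 9.38, 9.31 and 9.57 and 7.92, 8.17, 7.94 and 8.29 (-1.35 ± 0.13 SE, adjusted p = 0.00265). Neither gene's groups overlapped, and both kept the call in every alternative in which they were tested. For the kinase Aurkb, below background, and for Birc5 (survivin), on too few arrays, the measured ratios were below 0 but give no test.

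The spindle checkpoint delays anaphase until every kinetochore is attached, and 4 of its 5 genes were lower. Bub1 and Ttk passed the filter through the control livers alone, which favours a fall. Well above background in both groups, on at least 3 arrays, were 3 of the 5. Mad2l1, which binds and blocks CDC20, was measured on arrays 1, 2 and 4. Its signals there were 9.68, 9.36 and 9.71 in controls and 8.17, 7.92 and 8.10 in mice labelled Plin2-ASO, well apart. Its ratios of -1.51, -1.45 and -1.61 were close together (mean -1.52 ± 0.15 SE, adjusted p = 0.00444 by limma). Bub1, the kinase that recruits the other checkpoint proteins, had 8.12, 8.24, 7.90 and 8.87 and 6.59, 6.78, 6.77 and 7.07, and in none of the livers labelled Plin2-ASO was its probe clear of background. Its ratios were -1.52, -1.46, -1.13 and -1.80 (mean -1.48 ± 0.15 SE, adjusted p = 0.00298, group means 8.28 and 6.80), with a floored fall of 2.02-fold. Ttk, the MPS1 kinase at the top of the checkpoint, was likewise below background in every liver labelled Plin2-ASO (group means 7.88 and 6.93). Its floored fall was 1.52-fold, with ratios of -1.05, -0.96, -0.20 and -1.60 and an adjusted p of 0.0411. The 95% interval of its log2 ratio was -1.47 to -0.43.

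Bub1b (BUBR1), part of the inhibitor of the anaphase-promoting complex, had ratios of -0.94, -0.97, -0.13 and -0.99, and Bub3, its partner at the kinetochore, had -0.53, -0.44, 0.077 and -0.52. In both, array 3 lay near 0 while the other 3 arrays lay close together below it. Bub1b passed the test (mean -0.76 ± 0.18 SE, adjusted p = 0.0444) although the groups overlapped, and Bub3 did not (adjusted p = 0.191; without array 3, 0.0138). The calls of Bub1b and Ttk held without array 3 and were lost without any of the others: without array 1, 2 or 4 the adjusted p was 0.235, 0.220 and 0.128 for Bub1b and 0.189, 0.175 and 0.100 for Ttk. Bub1b also missed the threshold under 6 other alternatives, with adjusted p of 0.0525 to 0.124, and Ttk without the background filter, at 0.0594.

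Anaphase begins when CDC20 and the anaphase-promoting complex mark securin and cyclin B for destruction, and 3 of these 5 genes were lower. Cdc20 had the largest fall of the whole list. Its probe (chr4:117809370-117809429 in build mm7) gave 11.48, 11.46, 11.04 and 11.68 in controls and 8.43, 8.87, 8.87 and 8.74 in mice labelled Plin2-ASO. More than 2 log2 units separated the lowest control liver from the highest of the others. The ratios were -3.05, -2.59, -2.18 and -2.94 (mean -2.69 ± 0.17 SE, 95% interval -3.10 to -2.28, 6.45-fold lower, adjusted p = 0.00125 by limma). Ube2c, the conjugating enzyme of the complex, had 11.34, 10.91, 10.74 and 10.94 and 9.83, 9.43, 9.16 and 9.72, without overlap. Its ratios of -1.51, -1.48, -1.58 and -1.22 lay close together (2.72-fold lower, adjusted p = 0.00219). Cdca3, which helps to destroy the mitosis inhibitor WEE1, fell by 1.0 ± 0.13 (SE, adjusted p = 0.00719; without array 1, 0.0580).

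The protease and its inhibitor did not pass. Espl1, separase, which cuts cohesin, had ratios of -0.71, -0.23, -0.62 and -0.021 (adjusted p = 0.168), lower in arrays 1 and 3 than in 2 and 4, and its groups overlapped. Pttg1, securin, had -0.20, 0.0058, 0.66 and -0.14, below 0 on 2 arrays and above 0 on 2. Its 95% interval of -0.33 to 0.49 leaves out a fall of the median size of the list, and its mean without array 3 was -0.11.

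**Figure D3:**
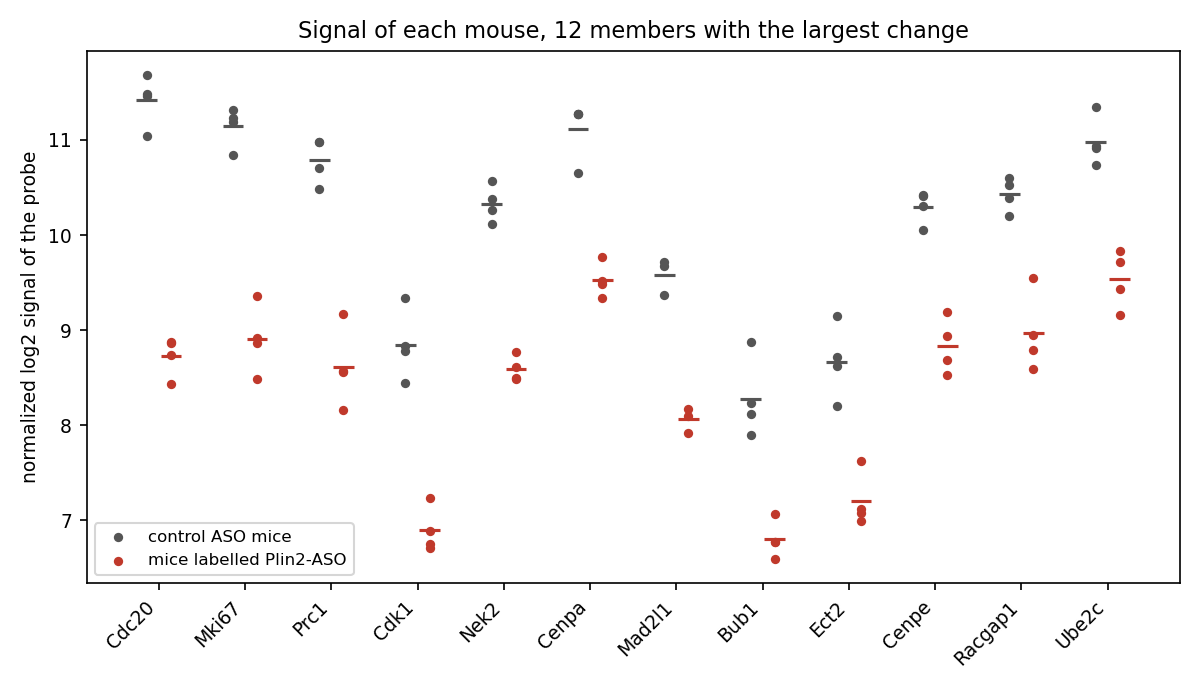
Normalized log2 signal (y axis) of each mouse for the 12 called members with the largest mean log2 ratios by size; grey points are control mice, red points are mice labelled Plin2-ASO and bars are group means, and levels of different genes come from different probes and are not comparable. In each of the 12 genes every control mouse lies above every mouse labelled Plin2-ASO, by the widest margin in Cdc20. Picking genes by a called and large fall favours such separation. The probes of Cdk1, Bub1 and Ect2 were below background in all mice labelled Plin2-ASO.

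Kinesins of mitosis move along, slide or shorten microtubules, and 4 of the 6 tested were lower. Kif20a, which carries the passenger complex to the midzone, had ratios from -1.55 to -1.24 (mean -1.40 ± 0.13 SE, adjusted p = 0.00240 by limma). Kif22, which pushes chromosome arms from the poles, ranged from -1.87 to -1.04 (-1.38 ± 0.17, adjusted p = 0.00512). Kif2c, which takes microtubules apart at the centromere, ranged only from -1.33 to -1.14 (-1.21 ± 0.12, adjusted p = 0.00307). Kif11, which drives the poles apart, ranged from -1.33 to -0.79 (-1.0 ± 0.14, adjusted p = 0.00869), and lost its call without array 1 or 2 (adjusted p = 0.0581 and 0.0521). The groups overlapped in none of these 4. Another kept probe of Kif20a changed less, and with it the gene had a ratio of -0.43 (adjusted p = 0.165).

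Kif4 and Kif23 did not pass. Kif4, the chromosome arm motor that binds PRC1 at the midzone, had ratios of -0.56, -0.42, -0.24 and -0.76, below 0 on all arrays and without overlap of the groups (adjusted p = 0.0706; without array 3, 0.0105). Kif23, the motor of centralspindlin, had -0.41, -0.034, -0.52 and 0.45 (mean -0.13 ± 0.19 SE, adjusted p = 0.701), with its highest value on array 4 and overlapping groups. A dimmer kept probe of Kif23, well above background in 1 liver labelled Plin2-ASO, read -0.86, -0.92, -0.57 and -0.62, lower on every array.

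Cytokinesis is steered from the midzone of the spindle, where PRC1 bundles microtubules and RACGAP1, the partner of KIF23, recruits ECT2 to start the contractile ring. Prc1, Racgap1 and Ect2 were all lower, and with Tpx2 and Nusap1 they made 5 of 6 genes of this group. Ect2 and Tpx2 passed the filter through the control livers alone, which favours a fall. Well above background in both groups, on at least 3 arrays, were 4 of the 6. The probe of Prc1 (chr7:76185003-76185055 in mm7) gave 10.98, 10.71, 10.48 and 10.98 in controls and 8.16, 8.57, 8.56 and 9.16 in mice labelled Plin2-ASO. No control liver was below 10.48 and no other liver above 9.16. Its ratios were -2.82, -2.13, -1.92 and -1.81 (4.50-fold lower, adjusted p = 0.00184 by limma). Racgap1 had 10.60, 10.20, 10.39 and 10.53 and 8.95, 8.79, 8.59 and 9.55, also without overlap, and its smallest fall was on array 4 (ratios -1.65, -1.41, -1.80 and -0.98; 2.75-fold lower, adjusted p = 0.00431).

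Ect2, the exchange factor for RhoA, had signals of 8.71, 8.62, 8.20 and 9.15 and 6.99, 7.08, 7.62 and 7.12, with none of the latter well above background. Its floored fall was 2.54-fold (group means 8.67 and 7.20, ratios -1.72, -1.54, -0.58 and -2.03, adjusted p = 0.0123), and array 3 gave the smallest fall. The 95% interval of its log2 ratio was -2.02 to -0.91. Without array 1 or 2 its adjusted p was 0.0747 and 0.0722. Tpx2, which activates AURKA on microtubules, showed the same array most clearly: -1.68, -1.37, -0.012 and -1.64 (mean -1.17 ± 0.28 SE, adjusted p = 0.0442). Its call was lost without array 1, 2 or 4 (adjusted p = 0.207, 0.190 and 0.110) and under 5 further alternatives (adjusted p of 0.0515 to 0.0680). Nusap1, which bundles spindle microtubules near chromosomes, fell by 1.08 ± 0.15 (adjusted p = 0.00732; without array 1 or 2, 0.0590 and 0.0590). Anln, anillin, the scaffold of the contractile ring, did not pass: its ratios of -0.44, -0.30, -0.31 and -0.30 were all below 0 (adjusted p = 0.132; without array 3, 0.0499), but the groups overlapped. Its other kept probe, below background in every liver labelled Plin2-ASO, read -1.48, -0.63, -1.06 and -1.18, and with the mean of both probes Anln passed (-0.71, adjusted p = 0.0193).

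Centromere proteins mark the site where the kinetochore forms, and 2 of 3 were lower. Cenpa, the histone variant of the centromere, had signals of 11.27, 11.27, 10.65 and 11.27 in controls and 9.48, 9.51, 9.77 and 9.33 in mice labelled Plin2-ASO. Control mouse 4, on array 3, was the lowest control, yet it lay above all livers labelled Plin2-ASO. The ratios were -1.79, -1.76, -0.89 and -1.94 (3.02-fold lower, adjusted p = 0.00520 by limma). Cenpe, the kinetochore motor that gathers chromosomes at the equator, had 10.42, 10.41, 10.06 and 10.30 and 8.53, 8.93, 8.69 and 9.19, again apart (ratios -1.89, -1.48, -1.37 and -1.11; 2.76-fold lower, adjusted p = 0.00375). Its 2 dimmer kept probes, well above background in 2 and 0 livers labelled Plin2-ASO, had means of -0.64 and -0.95. Cenpf, a large protein of the outer kinetochore, had -0.48, -0.14, -0.88 and -0.80 (mean -0.58 ± 0.16 SE, adjusted p = 0.0706). It was below 0 on all arrays, the groups did not overlap, and it passed without array 3 (adjusted p = 0.0410).

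Of the genes that fold, hold together or coat the chromosomes, 6 of 8 were lower. Ncaph among these passed the filter through the control livers alone, and 7 of the 8 were well above background in both groups. Mki67 encodes Ki-67, the proliferation marker that coats mitotic chromosomes. Its brightest probe (chr7:132094802-132094861 in mm7) gave 11.19, 11.31, 10.84 and 11.23 in controls and 8.49, 8.86, 8.92 and 9.36 in mice labelled Plin2-ASO. The dimmest control liver, at 10.84, lay well above the brightest of the others, at 9.36. The ratios were -2.70, -2.45, -1.92 and -1.88 (mean -2.24 ± 0.18 SE, 4.72-fold lower, adjusted p = 0.00147 by limma), and a second probe of the gene read -2.52, -2.19, -2.06 and -1.26. Top2a, which untangles sister chromatids, fell by 1.25 ± 0.13 (adjusted p = 0.00327); by its probe of smallest change the ratio was -0.58 (adjusted p = 0.0610). Of condensin, the ring that compacts chromosomes, Ncaph fell by 1.35 ± 0.14 (adjusted p = 0.00296), but its probe was well above background in only 1 of the 4 livers labelled Plin2-ASO, so the size of that fall rests mostly on signals near background. Ncapd2 fell by 0.87 ± 0.12 (adjusted p = 0.00819; without array 1 or 2, 0.0816 and 0.0675). Smc2 fell by 0.91 ± 0.16 (adjusted p = 0.0180; without array 1, 2 or 4, 0.0761, 0.119 and 0.0534).

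Other probes of Ncapd2 and Smc2 moved less: by the probe of smallest change the ratios were -0.26 and -0.48 (adjusted p = 0.396 and 0.118). With the channels fitted as independent samples Ncapd2 missed the threshold as well (adjusted p = 0.0502). Smc4, the partner of SMC2 in the ring, had ratios of -0.71, -0.99, -0.13 and -0.97 and an adjusted p of 0.0517, just above the threshold, without overlap of the groups. Without array 3 it passed (adjusted p = 0.00174). An about equally bright probe of Smc4 read -1.42, -1.58, -0.12 and -1.82, and with the mean of both the gene passed as well (-0.97, adjusted p = 0.0393). Cdca5, sororin, which protects cohesin until anaphase, had -0.47, -0.18 and -0.21 on arrays 1, 2 and 4 (adjusted p = 0.304), with overlapping groups.

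Cdca2 (Repo-Man), which brings a phosphatase to chromosomes in anaphase, was the 1 member whose kept probes differed in sign. The probe used had ratios of -1.25, -1.01, -1.45 and -1.10 (mean -1.20 ± 0.14 SE, adjusted p = 0.00417) and a second probe of the same transcript had -0.94, -1.25, -1.55 and -1.38. The other kept probe, a brighter one matched through another transcript record, was free of outlier marks on arrays 2 and 4 only and read 0.00 and 0.32 there. With outlier spots kept, or in the series table, that brighter probe stood for the gene, and the ratio was -0.27 (adjusted p = 0.603 and 0.671). In all, 17 members had more than 1 kept probe (40 probes): in 16 of them every probe was below 0, and in 10 the probes differed by more than 0.5 on the log2 scale. The other kept probes not yet given had means of -1.69 for Cdca3 (below background in every liver labelled Plin2-ASO), -0.89 for Cdca8, -1.11 for Mad2l1, -0.64 and -0.52 for Cdc25b, -0.56 for Cdca5 and -0.041 for Bub3, and of -0.76 on arrays 1 and 2 for Kif4.

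Foxm1, the transcription factor that turns on many genes of the list at entry into mitosis, was itself lower. Its signals were 9.30, 9.56, 8.65 and 8.99 in controls and 8.22, 7.89, 8.03 and 7.84 in mice labelled Plin2-ASO, without overlap. The ratios were -1.08, -1.67, -0.62 and -1.15 (mean -1.13 ± 0.18 SE, 2.19-fold lower, adjusted p = 0.0127 by limma). Without array 1 or 2 its adjusted p was 0.0770 and 0.0738.

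The count of calls depended on which pair of mice was left out. Without array 3 the count of members lower was 38 of 43, against 20.8% of all genes; without array 1, 2 or 4 it was 18 of 39, 19 of 39 and 25 of 40, against 1.27%, 1.2% and 4.07%. The median log2 ratio of the list stayed between -1.11 and -1.20 in these fits. Of the 30 called members, 16 kept the call in every alternative in which they were tested, 14 lost it in at least 1, and 0 changed sign. Of the 14 members not called, 12 were called lower in at least 1 alternative, all of these but Cdc25b under array quality weights, where 23.4% of all genes were lower. Plk4 was called in 8 alternatives, Smc4 in 7 and Kif4 in 5, while Kif23 and Pttg1 were called in none.

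Other genes of the cell cycle were also lower in part. Their lists were drawn up by function, but with earlier results of these data known. Of 173 tested, 55 were lower and 1 was higher, against 6.08% and 3.69% of all genes tested. At an unadjusted p under 0.05 (limma) they were 87 and 4, against 15.7% and 11.3% of all genes. The median log2 ratio was -0.40, nearer to 0 than that of the mitosis and spindle genes, a difference that was not tested. Among other kinetochore and centromere genes 15 of 34 were lower and 0 higher (median -0.57). Only 27 of the 34 were well above background on at least 3 arrays in both groups. The others passed the filter through 1 group alone, and where that was the controls the filter favoured a fall. Spc25 and Nuf2, of the NDC80 complex that grips microtubules, had mean log2 ratios of -1.61 ± 0.13 and -1.63 ± 0.17 (SE, adjusted p = 0.00147 and 0.00321). Nuf2 was below background in every liver labelled Plin2-ASO, with a floored fall of 2.45-fold. Knl1, the kinetochore platform for BUB1, fell by 0.76 ± 0.14 (adjusted p = 0.0192; without array 1, 2 or 4, 0.134, 0.144 and 0.0559). Ndc80 itself had a ratio of -0.18 ± 0.15 (adjusted p = 0.497) that turned to 0.022 with median centring, and Zwint, which links KNL1 to the checkpoint, had -0.48 ± 0.18 (adjusted p = 0.138; without array 3, 0.0175).

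Of other spindle and cytokinesis genes 10 of 30 were lower and 0 higher (median -0.44), against 6.08% and 3.69% of all genes tested. Well above background on at least 3 arrays in both groups were 22 of the 30. Hmmr, a spindle pole protein, fell by 0.65 ± 0.15 (adjusted p = 0.0382; without array 1, 2 or 4, 0.255, 0.113 and 0.116). Kif15, a motor that backs up KIF11, had a mean ratio of -0.65 ± 0.16 and was below background in every liver labelled Plin2-ASO. Its floored fall was 1.35-fold (adjusted p = 0.0493, and without array 1, 2 or 4, 0.290, 0.213 and 0.0920). Aspm, Cep55 and Ckap2, which act at the poles, the midbody and on microtubules, had ratios of -0.51 ± 0.13, -0.33 ± 0.18 and 0.47 ± 0.17 (adjusted p = 0.0580, 0.280 and 0.142), and Aspm passed without array 3 (adjusted p = 0.0254). That of Ckap2 became -0.095 with the mean of its kept probes.

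Few other subunits of condensin, cohesin and the anaphase-promoting complex passed the test. Of other condensin and cohesin genes 2 of 14 were lower and 0 higher (median -0.15). Of the subunits and partners of the anaphase-promoting complex 1 of 15 was lower and 0 higher (median -0.24). Among all genes tested 6.08% were lower and 3.69% higher, so the 1 of 15 lay near the share of all genes. Ncapg, of the same condensin as Ncaph, fell by 0.92 ± 0.21 (adjusted p = 0.0381; without array 1, 2 or 4, 0.194, 0.149 and 0.0966), while Ncapd3, of the other condensin, had -0.16 ± 0.17 (adjusted p = 0.596). The cohesin ring genes Smc1a, Smc3 and Rad21 had -0.14 ± 0.15, 0.42 ± 0.15 and -0.29 ± 0.22 (adjusted p = 0.596, 0.118 and 0.429). Smc3 was negative with outlier spots kept (-0.34), Smc1a positive with the mean of its probes (0.087), and Rad21 passed without array 3 (adjusted p = 0.0107). The core subunits Anapc1, Anapc5, Cdc16 and Cdc27 had 0.16 ± 0.15, -0.26 ± 0.13, -0.32 ± 0.18 and 0.29 ± 0.14, and Fzr1, the second activator beside Cdc20, had -0.093 ± 0.16 (adjusted p = 0.536, 0.260, 0.296, 0.215 and 0.762). Without array 3 Cdc16 passed (adjusted p = 0.0136) and Fzr1 turned to 0.059; by the probe of smallest change Anapc1, Cdc16 and Cdc27 turned to -0.036, 0.068 and -0.055.

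Genes of the other phases of the cycle were lower in part. Of DNA replication genes 18 of 39 were lower and 0 higher (median -0.58), against 6.08% and 3.69% of all genes tested. Well above background on at least 3 arrays in both groups were 37 of the 39. Mcm6, a subunit of the replicative helicase, fell by 2.03 ± 0.14 (SE, 4.08-fold lower, adjusted p = 0.00125), and Tyms, which makes thymidylate, by 0.89 ± 0.18 (adjusted p = 0.0276; without array 1, 2 or 4, 0.164, 0.148 and 0.0782). Pcna, the sliding clamp, and Rrm2, of ribonucleotide reductase, had -0.71, -0.96, 0.37 and -1.02 and -0.65, -0.38, 0.11 and -1.14 on arrays 1 to 4, positive on array 3 only (adjusted p = 0.179 and 0.166; without array 3, 0.00174 and 0.0115).

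Of cyclins, cyclin-dependent kinases and inhibitors 6 of 22 were lower and 0 higher (median -0.54), against 6.08% and 3.69% of all genes tested. Well above background on at least 3 arrays in both groups were 20 of the 22. Ccna2 and Ccnb1, the cyclins that pair with CDK1, were lower, with ratios of -1.99 ± 0.17 and -1.68 ± 0.19 (adjusted p = 0.00172 and 0.00395). The probe of Ccnb1 was well above background in 1 liver labelled Plin2-ASO and in 4 control livers. It passed the filter through the controls alone, so the size of its fall rests mostly on signals near background. Ccnb2 fell by 0.95 ± 0.16 (adjusted p = 0.0155; without array 1 or 2, 0.119 and 0.110). Ccnd1, the G1 cyclin that answers growth signals, fell by 1.47 ± 0.13 (adjusted p = 0.00228). Cdkn1a, which encodes the inhibitor p21 that acts against division, was lower as well, by 0.97 ± 0.16 (adjusted p = 0.0125; without array 1 or 2, 0.102 and 0.0934).

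The transcriptional regulators did not move as 1 group: 3 of 19 were lower and 1 was higher (median 0.01), against 6.08% and 3.69% of all genes tested. E2f8, a repressor of the E2F family, was the 1 cell cycle gene that rose, by 1.92 ± 0.35 (SE, 3.77-fold, ratios 1.83, 1.67, 3.29 and 0.87, adjusted p = 0.0185; without array 1 or 2, 0.0798 and 0.0756). E2f1, an activator, fell by 0.61 ± 0.12 (adjusted p = 0.0269; without array 1, 2 or 4, 0.212, 0.161 and 0.0701). Mybl2, which turns on mitotic genes, had -0.068, 0.032, -1.11 and -0.19, near 0 on arrays 1 and 2 and low on array 3 (adjusted p = 0.348). Lin9, of the MuvB core, and Rb1, the retinoblastoma protein, had 0.34 ± 0.18 and -0.35 ± 0.26 (adjusted p = 0.280 and 0.419; Rb1 without array 3, 0.0110), and by the probe of smallest change they turned to -0.11 and 0.017.

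**Figure D4:**
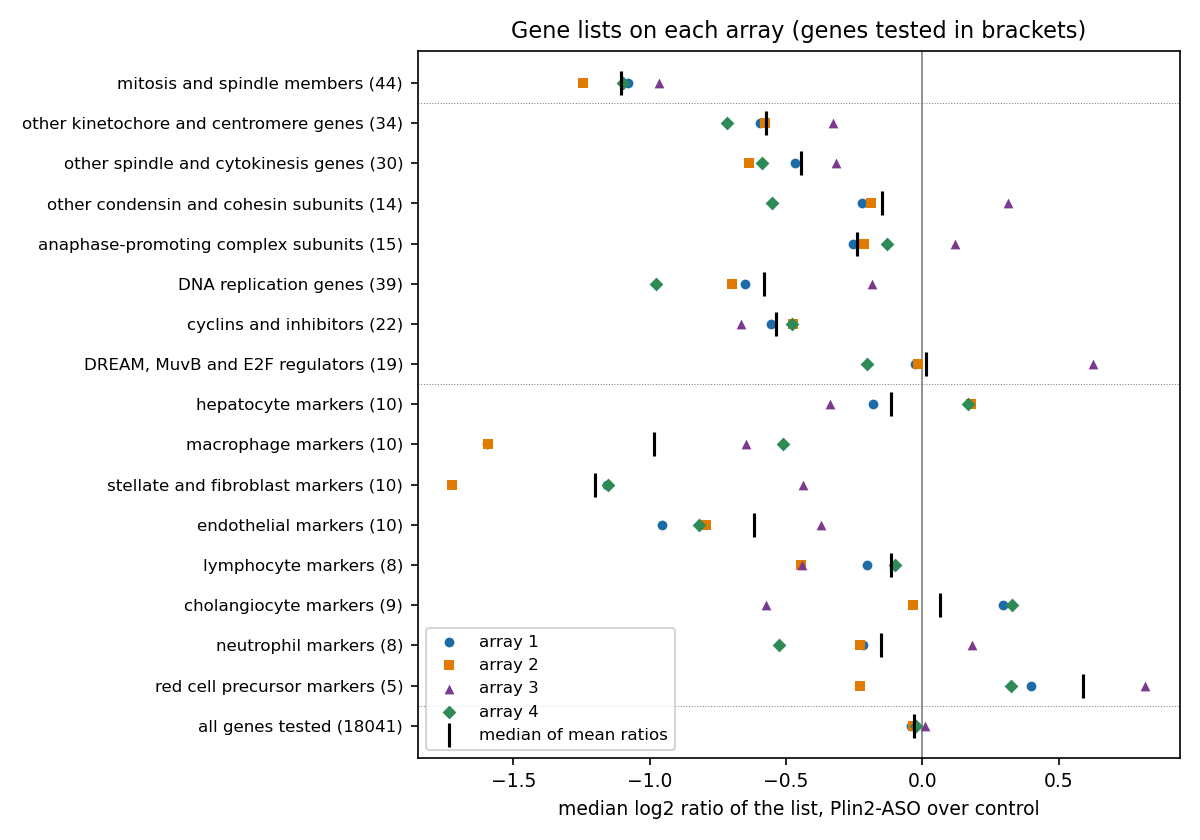
Median log2 ratio (liver labelled Plin2-ASO over control liver, x axis) of each gene list on each of the 4 arrays, with the genes tested in brackets; the black bar is the median of the mean ratios. The mitosis and spindle genes lie between -0.97 and -1.25 on the 4 arrays, the other cell cycle lists have medians of -0.58 to 0.01, and the macrophage and stellate cell markers have medians of -0.98 and -1.20.

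Markers of liver cell types were read in the same livers, although whole tissue does not tell which cells changed. The counts below stand beside 6.08% lower and 3.69% higher among all genes tested. All 10 hepatocyte markers were well above background in both groups, with 1 of 10 lower (Alb, albumin, -1.70 ± 0.15, adjusted p = 0.00172), 0 higher and a median log2 ratio of -0.12. Stellate cell and fibroblast markers were lower in 6 of 10 (median -1.20), among them Col1a1, a chain of collagen I (-3.35, -4.10, -1.70 and -2.64, adjusted p = 0.00482). Means above 0 were found for 2 of the 10, the highest that of Acta2 at 0.11 ± 0.17 (SE, adjusted p = 0.711 by limma). The median signal of that list over its 10 genes ran from 11.67 to 12.78 in control livers and from 10.52 to 11.15 in livers labelled Plin2-ASO. Macrophage markers were lower in 6 of 10 and higher in 3, with a median of -0.98 and list signals of 12.01 to 12.51 against 10.93 to 11.62. Trem2 and Gpnmb, of lipid-laden macrophages, were lower, at -2.28 ± 0.18 and -2.71 ± 0.24. Genes of resident Kupffer cells went both ways: Clec4f, Vsig4 and Marco rose by 2.37 ± 0.15, 2.52 ± 0.21 and 2.48 ± 0.36, whereas Cd5l fell by 1.02 ± 0.25 (adjusted p = 0.0470). Of general macrophage genes Csf1r fell by 0.95 ± 0.22 (adjusted p = 0.0423) and Adgre1 had -0.80 ± 0.27 (adjusted p = 0.107). Endothelial markers were lower in 5 of 10 (median -0.62, list signals 10.11 to 10.71 against 9.36 to 10.29).

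The other marker lists moved less or in both directions: 1 of 8 lymphocyte, 3 of 9 cholangiocyte, 1 of 8 neutrophil and 1 of 5 red cell precursor genes were lower, and 2 of the last rose. Of the 9 cholangiocyte means 6 were above 0, with a list median of 0.063. Among all genes tested 6.08% were lower and 3.69% higher, and in lists this short a count of 1 says little. Cd8a, Lck, Epcam, Cxcr2, Ly6g, Epb42, Gata1 and Hbb-b1 were not tested, being below background or on too few arrays. The marker genes named in this account beyond their lists were singled out after their values were seen. The part of these cell types in the fall of the mitosis and spindle genes was not tested.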

How the data were processed

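Liver RNA of 4 control mice and 4 mice labelled Plin2-ASO was amplified from about 50 ng, per the labels' protocols, and measured on 4 arrays of 2 colours. Per the file headers, spot intensity was extracted with Feature Extraction 9.5.1.1. The mean signal and median local background intensity of each spot were used as the authors deposited them, before background subtraction. The log10 ratios deposited in the same files and the log2 ratios of the series table deposited by the authors are red over green, were the same for all 41174 probes (largest difference 0), and served as alternatives with the sign turned.

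Of the 45018 spots on an array 1639 were controls. In limma 3.58.1 (R 4.3.3), normexp with an offset of 50 removed the background and loess normalized each array, with control spots at weight 0 and outlier spots missing. Probes well above background on at least 3 arrays in 1 group were kept (27160), the brightest kept probe stood for a gene, and genes measured on at least 3 arrays were tested (18041, of 18638 past the filter). The mean log2 ratio was tested against 0 (lmFit, eBayes, two-sided), with Benjamini-Hochberg adjustment at 0.05, and every adjusted p given is from limma. The pair on an array is the replicate. Probes were named through the RefSeq table of assembly GRCm38.p6: 22951 by their accession, 131 by another accession, 6582 by symbol and 3073 by older symbol, while 8437 kept the file's name. Probe positions are the files' mm7, whose exon annotation was not used here. The procedure was tested on simulated data.

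The members and gene lists were chosen with earlier results of these data known, so lists are described by counts and medians without a test. All members are accounted for. Some listed marker genes are not reported here. Array values are given for the 12 called members of largest change, every member not called and those with probes of opposite sign; of the other lists only genes named before the files were read are given, markers excepted. Alternatives were other background corrections, centring, scaling, filters, probe rules, models, thresholds and leaving out each array; counting only genes above background in both groups and the probe of smallest change were added after seeing the data.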

Additional observations from a re-analysis of the deposited data

Results flagged for a closer look

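In 6 of the 99 sets of 4 array values examined, 1 array lay apart from the other 3 by a gap that took up nearly the whole range (Dixon's test for 4 values); chance gives about 1 in 20. In 5 of the 6 it was array 3, the array with the most outlier spots. Cenpa stood at -0.89 there against -1.94 to -1.76 on the others, Bub1b at -0.13 against -0.99 to -0.94, and Bub3 at 0.077 against -0.53 to -0.44. Among genes outside the list, Ccna2 stood at -1.44 against -2.21 to -2.16, and Lin9 at 0.96 against 0.070 to 0.21. On array 1, Anln stood at -0.44 against -0.31 to -0.30. All values are log2 ratios of livers labelled Plin2-ASO over control livers.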

How the results depend on the processing

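Over all alternatives the count of members lower ran from 18 to 41, 0 members were higher in any, and no called member changed sign. Leaving out 1 array gave 18 to 38 members lower, 0 higher, a list median of -1.20 to -1.11 and 342 to 5788 genes changed in all, against 1761. The median log2 ratio of the list moved from -1.10 to -1.24 with an offset of 16, to -1.47 with the software's ratios, to -1.32 in the series table and to -0.92 with the probe of smallest change. Array quality weights gave 41 members lower among 7007 genes changed, and an adjusted p under 0.1 gave 3012 genes; the cause was not tested. With the channels as independent samples, without the pairing by array, 27 of 39 members were lower (4.98% of all genes); with separate channels and the intraspot correlation, 32 of 39 (9.34%). Signs that turned, all of genes not called: Ndc80 0.022 (median centring), Smc3 -0.31 (series table) and -0.34 (outlier spots kept), Ckap2 -0.095 and Smc1a 0.087 (mean of probes), Pttg1 -0.088 (array weights), and by the probe of smallest change Anapc1 -0.036, Cdc16 0.068, Cdc27 -0.055, Lin9 -0.11 and Rb1 0.017. Leaving out 1 array turned Kif23 (range -0.32 to 0.0014), Pttg1 (-0.11 to 0.17) and Fzr1 (-0.22 to 0.059). With 4 pairs of mice and no dye swap, small changes of dim probes could not be measured well.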

Other observations

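Genes outside the list that carry the same promoter letters were counted after the data were seen. These genes had CHR letters from 100 bases before to 50 after a start. They also had CCAAT letters anywhere from 250 bases before to 50 after it. Of 354 such genes tested, members left out, 39 were lower (11.0%) and 15 higher (4.24%), with a median log2 ratio of -0.047. Without the other cell cycle lists as well, 26 of 325 were lower (8.0%). Of 10788 genes with no CHR letters from 100 bases before to 50 after a start, 6.24% were lower. Members and the other cell cycle lists were left out there too. No test was made of these shares.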
